A study of Mus musculus with 48 samples.

Results

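Hydralazine was given in drinking water to mice that were also infused with angiotensin II, and the RNA of their brain hemispheres was compared with that of mice infused with angiotensin II alone. The comparison used 12 of the 48 RNA-seq libraries of the study, 6 per group, chosen by the treatment and region in their labels. A gene was tested when it reached 0.5 FPKM (fragments per kilobase of gene, scaled to library size) in at least 6 of the 12 libraries, which held for 15840 of 54532 genes. All mice were male wild-type C57Bl6, and their age is not given in the labels used here. Angiotensin II was delivered at 0.7 mg/kg per day by an implanted osmotic minipump over 2 weeks. Mice of the group with both drugs carried the same pump and drank hydralazine at 50 mg/kg. For context, 6 hemisphere libraries of vehicle mice (pumps with 0.9% saline) and 6 of vehicle mice given hydralazine were used, together with the hippocampal libraries of the same treatments. Both angiotensin II groups carry the label hypertension and both vehicle groups the label control, while blood pressures were not analysed here. Nothing in the labels says whether a library came from a single mouse, so the p-values measure the spread between these samples. The labels do not say either whether same-numbered hemisphere and hippocampal libraries share a mouse, and the regions were compared as unpaired samples.

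Angiotensin II is the effector peptide of the renin-angiotensin system, which constricts arterioles and raises blood pressure when infused. Hydralazine is a vasodilator that relaxes arteriolar smooth muscle and is used to separate the effects of raised pressure from those of angiotensin II itself. Endothelin-1, the product of Edn1, is made mainly by endothelial cells as a precursor that endothelin-converting enzymes cleave, and the peptide acts on the receptors Ednra, on vascular smooth muscle, and Ednrb, on endothelium and astrocytes.

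The libraries with both drugs held 19.2 to 23.5 M reads in genes and those with angiotensin II alone 17.0 to 20.5 M, a difference of means of 2.49 M (two-sided exact permutation test, p = 0.0108, adjusted p = 0.0325 over 3 library measures; 0.0519 without angiotensin II replicate 6). The number of genes above 0 ranged from 23161 to 25610 with both drugs and from 23165 to 24782 with angiotensin II (exact permutation p = 0.489). Mitochondrial genes took 5.91 to 6.65% of reads with both drugs and 2.77 to 6.66% with angiotensin II (exact permutation p = 0.331). The lowest share was that of angiotensin II replicate 6, which stood apart in many measures. Many results that rest on it, but not all, are therefore given with and without it.

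With hydralazine added to angiotensin II, no hemisphere gene passed an adjusted p of 0.05 (limma on log2(FPKM + 0.5), 0 of 15840 genes called, 0.0%), and the lowest adjusted p was 0.804. At an unadjusted limma p under 0.05 stood 443 genes, 222 higher (1.4%) and 221 lower (1.4%) with both drugs, against 792 expected if no gene differed. Groups did not overlap for 20 genes that were higher (0.126%) and 16 that were lower (0.101%) with both drugs. The median difference over all tested genes was 0.00 on the log2 scale, and the median standard error was 0.107. Without angiotensin II replicate 6, 0 of 15731 genes were called (lowest adjusted p 0.320), the median standard error was 0.0688, and 473 genes were higher (3.01%) and 426 lower (2.71%) at an unadjusted limma p under 0.05. Genes below are therefore named by their place in the ranking of p-values, and their values are a description of these libraries unless a test is given as passed.

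**Figure D1:**
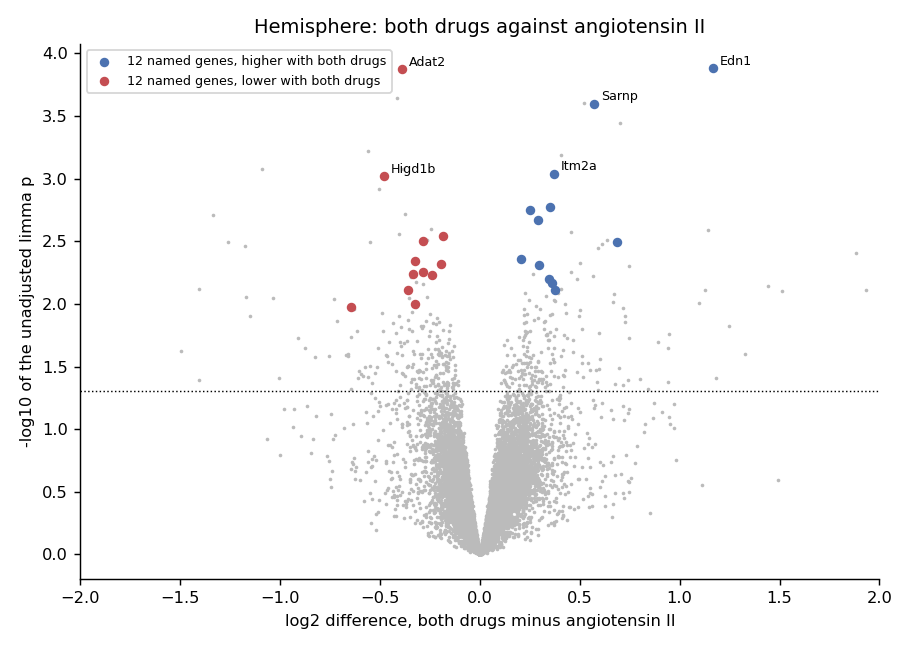
Each point is 1 of the 15840 tested genes, with the difference in mean log2(FPKM + 0.5) between both drugs and angiotensin II on the x axis and minus log10 of the unadjusted limma p on the y axis; the dotted line marks a p of 0.05. Coloured points are the 24 named genes, among which Edn1 lies furthest to the right at 1.17, and no gene passed the adjusted threshold.

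Edn1, which encodes the vasoconstrictor precursor preproendothelin-1, had the lowest p of all named protein-coding genes that were higher with both drugs, and Cxcl12, which encodes a chemokine of vascular and stromal cells, was also among the 12 such genes with the lowest p. These were also the only genes of those 12 that were higher at an unadjusted limma p under 0.05 in the separate comparison of hydralazine with vehicle. For that reason the 250 bases before each gene's start are shown (RefSeq, GRCm38.p6, plus strand, 5′ to 3′, chr13:42301226-42301475 for Edn1 and chr6:117168285-117168534 for Cxcl12), with the letters CACCC or their reverse complement GGGTG in capitals, the core of sites bound by Krüppel-like factors.
Edn1: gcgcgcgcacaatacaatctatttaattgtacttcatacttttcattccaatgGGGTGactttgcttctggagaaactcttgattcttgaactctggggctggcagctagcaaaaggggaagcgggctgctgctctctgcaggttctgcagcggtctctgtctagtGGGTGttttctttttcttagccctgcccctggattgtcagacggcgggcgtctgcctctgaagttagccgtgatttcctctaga
Cxcl12: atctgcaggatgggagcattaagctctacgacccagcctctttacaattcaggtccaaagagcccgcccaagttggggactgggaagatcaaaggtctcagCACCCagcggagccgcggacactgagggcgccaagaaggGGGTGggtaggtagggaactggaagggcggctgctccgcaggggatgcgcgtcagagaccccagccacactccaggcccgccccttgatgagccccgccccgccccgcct
Edn1 held 2 matches, at 197 and 84 bases before the start, and Cxcl12 held 2, at 149 and 110. Of 32851 RefSeq promoters, 52.0% held at least 1 match on either strand and 21.1% held at least 2. Neither window held ACGTG (found in 16.6% of promoters), TGANTCA (6.75%) or GATAA (22.6%), searched on both strands. Only these exact letters in the 250 bases before the RefSeq start were searched. Sites outside the windows or with other letters would be missed, so the absence does not describe the whole promoters. CACCC was marked after the matches were seen, and other motifs had been looked at as well, so the matches are a description of the letters only.

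Edn1 (ENSMUSG00000021367) lies on the plus strand at chr13:42301476-42307990 (GRCm38, as for all gene positions here) and overlaps only the gene model Gm47118. In the 6 angiotensin II libraries it stood at 1.41, 1.51, 1.43, 1.27, 1.4 and 1.04 FPKM, which corresponds to 42 to 61 reads. In the 6 libraries with both drugs it stood at 3.66, 3.44, 5.38, 1.45, 4.05 and 5.24 FPKM, or 62 to 247 reads. Thus 5 of 6 libraries with both drugs lay above every angiotensin II library, and replicate 4 lay within their range.

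The Edn1 means were 1.34 ± 0.166 FPKM (SD, n = 6) with angiotensin II and 3.87 ± 1.43 FPKM (SD, n = 6) with both drugs, a ratio of 2.88. On the log2 scale the difference was 1.17 (SE 0.219, 95% confidence interval 0.69 to 1.64, limma adjusted p = 0.804). A two-sided exact permutation test over 924 regroupings gave p = 0.00433, and over 462 regroupings without angiotensin II replicate 6 it gave p = 0.00649. This test was run for 9 single genes that were chosen with earlier results of these data known. Its p-values for Edn1 are therefore not independent evidence. Leaving out replicate 4 of both drugs gave a difference of 1.38 (SE 0.121, limma adjusted p = 0.00121), and Edn1 was then the only called gene of 15707 (0.00637%). That library was singled out after its value was seen, and in the other 11 fits that each left out 1 library the difference lay between 1.06 and 1.19 and the adjusted p between 0.529 and 0.987. The call for Edn1 therefore depends on 1 library.

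Edn1 showed a similar pattern in mice without angiotensin II, in libraries that the main comparison did not use. The vehicle libraries stood at 1.36, 1.75, 1.16, 1.1, 1.09 and 0.887 FPKM. The libraries of vehicle plus hydralazine stood at 3.52, 3.43, 0.825, 1.51, 4.52 and 4.73 FPKM, so 4 of 6 lay above every vehicle library and replicates 3 and 4 did not. The difference was 0.91 on the log2 scale (SE 0.309, 95% confidence interval 0.24 to 1.59, limma adjusted p = 0.9999), in a comparison added after the values were seen in which 0 of 15820 genes were called (0.0%). Adding hydralazine moved Edn1 by 0.25 more with angiotensin II than without it (the interaction, SE 0.393), a contrast that shares the main comparison's libraries. Averaged over both infusions (24 libraries, which include those of the main comparison), the difference was 1.04 (SE 0.196, limma adjusted p = 0.365, 0 of 16747 genes called, 0.0%). It passed the threshold without replicate 4 of both drugs (1.15, limma adjusted p = 0.0196) or without replicate 3 of vehicle plus hydralazine (1.17, limma adjusted p = 0.00423). Each of these libraries held the lowest Edn1 value of its group, so leaving it out raises the difference. In 27 of 29 alternatives of this average no gene was called.

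In the hippocampus, Edn1 stood at 0.344, 0.644, 1.5, 1.66, 1.01 and 0.976 FPKM with angiotensin II and at 3.06, 1.11, 1.07, 3.43, 0 and 1.42 FPKM with both drugs. These groups overlapped, and the replicate 5 of both drugs that is listed at 0 is 1 of 6 hippocampal libraries with fewer than 16000 genes above 0. The hippocampal difference was 0.31 (SE 0.443), and 0.78 (SE 0.318, limma adjusted p = 0.722) without the 2 libraries of these groups that list few genes. The difference between the regions was −0.85 (hippocampus minus hemisphere, SE 0.511). Vehicle libraries of the hippocampus reached 2.23 FPKM. Those of vehicle plus hydralazine reached 7.99 FPKM in replicate 4, which is also a library that lists few genes. The highest library of that group without this limit was replicate 1, at 2.85 FPKM, and replicate 3, which lists few genes, was at 0.

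**Figure D2:**
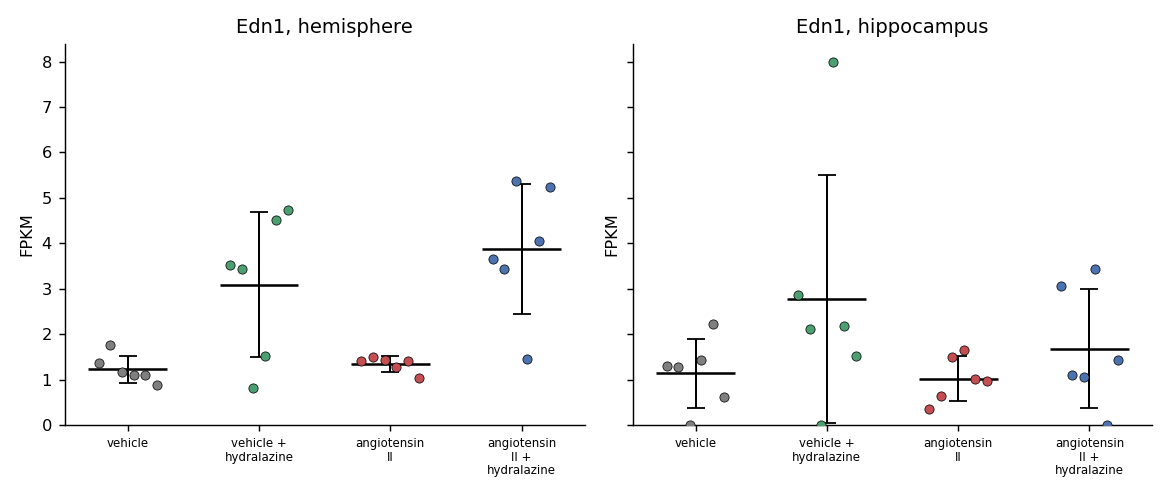
Edn1 FPKM (y axis) in each library of the 4 treatment groups (x axis) in the hemisphere and the hippocampus; points are libraries, and bars are the mean ± SD over 6 libraries. In the hemisphere, 5 of 6 libraries with both drugs and 4 of 6 with vehicle plus hydralazine lie at 3.43 FPKM or more, and every library without hydralazine lies at 1.75 FPKM or less.

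The other tested genes of the endothelin system differed less than Edn1, and none passed the adjusted threshold. The receptor Ednrb ranged from 4.79 to 12.6 FPKM (median 11.4) with angiotensin II and from 11.2 to 12.5 FPKM (median 11.7) with both drugs. Its log2 difference of 0.22 (exact permutation p = 0.346) was 0.02 without angiotensin II replicate 6, which held the lowest value. The receptor Ednra differed by 0.09 (exact permutation p = 0.342), the converting enzyme Ece1 by 0.02 (exact permutation p = 0.688) and the related enzyme Ece2 by −0.07 (exact permutation p = 0.426). The neuronal ligand Edn3 differed by 0.09 (exact permutation p = 0.504), and the peptidase genes Mme (neprilysin, which degrades endothelins) and Mmel1 by 0.08 (exact permutation p = 0.693) and −0.16 (exact permutation p = 0.0974). Edn2 was below the expression filter. Of 8 tested members, 6 averaged higher and 2 lower, with a median of 0.08 against 0.00 over all genes and 0.02 without angiotensin II replicate 6.

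Endothelial identity genes as a group had a median difference near that of all genes. All 30 identity markers on the list were tested, 21 averaged higher and 9 lower with both drugs, and the median log2 difference was 0.03 (0.02 without angiotensin II replicate 6). Their summed FPKM ranged from 288 to 370 with angiotensin II and from 293 to 348 with both drugs. At an unadjusted limma p under 0.05 stood 3 members, all higher (1.4% of all genes): Itm2a, Eng and Slco1a4. In tissue RNA, fewer cells of a type and less RNA per cell cannot be told apart.

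Itm2a, which encodes an integral membrane protein found in brain endothelium (ENSMUSG00000031239, chrX:107397099-107403376, minus strand), ranged from 24.7 to 33.9 FPKM (median 31.3) with angiotensin II and from 34.7 to 46.3 FPKM (median 39.7) with both drugs. The groups did not overlap. The log2 difference was 0.37 (SE 0.0869, limma adjusted p = 0.934), and 0.31 without angiotensin II replicate 6, which held the lowest value. In vehicle mice Itm2a ranged from 28.1 to 34.3 FPKM without and from 28.3 to 37.4 FPKM with hydralazine, a difference of −0.00 (SE 0.0743). The interaction was 0.37 (SE 0.117, limma adjusted p = 0.9998).

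Eng encodes endoglin, a co-receptor for transforming growth factor beta family ligands on endothelium. It ranged from 7.39 to 11.7 FPKM (median 8.44) with angiotensin II and from 8.54 to 14.7 FPKM (median 11.6) with both drugs, overlapping groups with a log2 difference of 0.35 (SE 0.129, limma adjusted p = 0.934). Slco1a4, an organic anion transporter of the blood-brain barrier, ranged from 3.61 to 7.64 FPKM with angiotensin II and from 6.86 to 8.23 FPKM with both drugs. Its difference was 0.34 (SE 0.132), and 0.21 without angiotensin II replicate 6.

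Genes of endothelial activation and flow response showed no shared direction apart from Edn1. Of 14 tested members of 20, 6 averaged higher and 8 lower, with a median of −0.03, and Edn1 was the 1 member at an unadjusted limma p under 0.05. Markers of mural cells, the pericytes and smooth muscle cells around vessels, were split into 9 higher and 9 lower of 18 tested (median −0.01, and 0.04 without angiotensin II replicate 6). Higd1b, a pericyte gene, was the mural marker at an unadjusted p under 0.05. It ranged from 4.05 to 6.89 FPKM (median 4.87) with angiotensin II and from 2.82 to 4.17 FPKM (median 3.36) with both drugs, overlapping slightly, with a log2 difference of −0.48 (SE 0.114, limma adjusted p = 0.934; −0.40 without angiotensin II replicate 6, the highest library).

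In the hemisphere, the chemokine gene Cxcl12 and the gene of its receptor, Cxcr4, were higher in every library with both drugs than in any with angiotensin II alone. Cxcl12 (ENSMUSG00000061353, chr6:117168535-117181367) ranged from 7.38 to 8.71 FPKM (median 8.37) with angiotensin II and from 9.03 to 10.9 FPKM (median 9.94) with both drugs. The groups did not overlap, and the difference was 0.25 (SE 0.0647, limma adjusted p = 0.934). In vehicle mice it ranged from 7.66 to 9.33 FPKM without and from 8.60 to 10.9 FPKM with hydralazine, overlapping groups with a difference of 0.17 (SE 0.0628, limma adjusted p = 0.9999). In the hippocampus, without the libraries that list few genes, Cxcl12 ranged from 7.58 to 8.50 FPKM with angiotensin II. With both drugs it ranged there from 5.80 to 8.52 FPKM, so the groups overlapped.

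Cxcr4 was low, at 17 to 46 reads per library. It ranged from 0.519 to 0.822 FPKM (median 0.555) with angiotensin II and from 0.895 to 1.08 FPKM (median 1.01) with both drugs, without overlap (difference 0.41, SE 0.0914, limma adjusted p = 0.934). Vehicle libraries already stood at 0.761 to 1.31 FPKM and those of vehicle plus hydralazine at 0.824 to 1.46 FPKM, a difference of 0.01 (SE 0.111). In the hippocampus, without the libraries that list few genes, Cxcr4 overlapped, at 1.31 to 1.93 FPKM with angiotensin II and 0.989 to 1.91 FPKM with both drugs. Of 11 tested chemokines and receptors on a list of 21, 5 averaged higher and 6 lower (median −0.02), and Cxcl12 and Cxcr4 were its members whose groups did not overlap, both higher (0.126% of all genes). Ccl12, a monocyte chemokine, ranged from 0.512 to 1.79 FPKM with angiotensin II and from 0.168 to 1.04 FPKM with both drugs (difference −0.65, SE 0.240), at 2 to 20 reads per library.

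**Figure D3:**
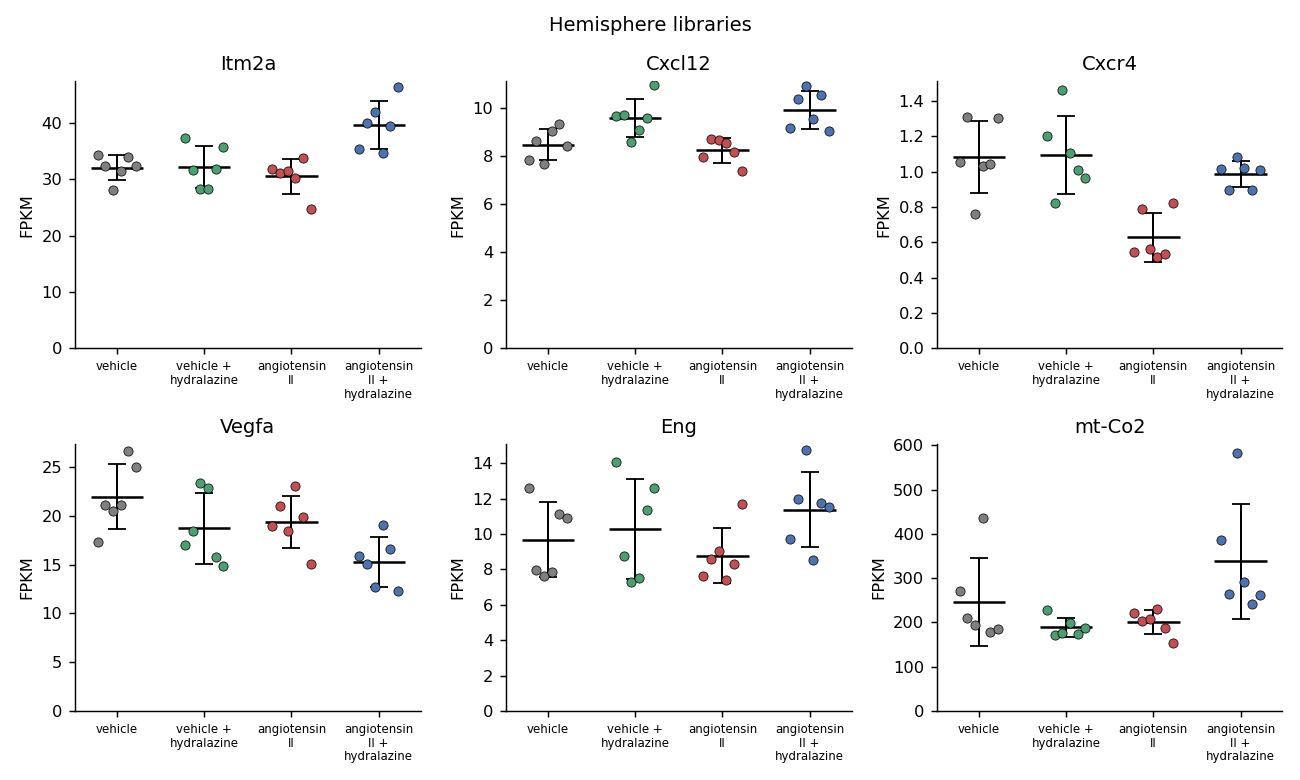
FPKM (y axes) of Itm2a, Cxcl12, Cxcr4, Vegfa, Eng and mt-Co2 in each of the 24 hemisphere libraries by treatment (x axis); points are libraries and bars are the mean ± SD over 6. The groups with angiotensin II alone and with both drugs do not overlap for Itm2a, Cxcl12, Cxcr4 and mt-Co2 and overlap for Vegfa and Eng.

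The other genes among the 12 with the lowest p that averaged higher with both drugs came from many functions. Sarnp, which encodes an RNA-binding protein of mRNA export, ranged from 5.0 to 8.11 FPKM (median 7.46) with angiotensin II and from 9.04 to 11.7 FPKM (median 10.4) with both drugs, without overlap. Its difference was 0.57 (SE 0.115, limma adjusted p = 0.804), and it overlaps the genes Dnajc14 and Ormdl2, from which its reads may not be separable. Fam181b, an astrocyte-enriched gene, ranged from 4.27 to 6.25 FPKM with angiotensin II and from 6.45 to 8.23 FPKM with both drugs (difference 0.35, SE 0.0886). These groups did not overlap either, although the vehicle libraries covered 5.87 to 7.85 FPKM. Cbx1, a heterochromatin protein gene, ranged from 6.68 to 8.60 FPKM with angiotensin II and from 8.69 to 9.27 FPKM with both drugs, also without overlap (difference 0.20, SE 0.0595).

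The mitochondrially encoded cytochrome oxidase subunit mt-Co2 ranged from 154 to 231 FPKM (median 205) with angiotensin II and from 241 to 582 FPKM (median 278) with both drugs, without overlap. The difference was 0.69 (SE 0.191, limma adjusted p = 0.934), but vehicle libraries covered 178 to 436 FPKM, and nuclear copies of mitochondrial genes make its counting uncertain. Pcp4, a calmodulin regulator of neurons that overlaps Igsf5, ranged from 56.7 to 82.9 FPKM with angiotensin II and from 69.9 to 97.4 FPKM with both drugs (difference 0.35, SE 0.107). The remaining genes were Dnase1l2 (difference 0.29), Sh3bgr (0.30), Fastkd5 (0.36, overlapping Ubox5) and Mterf1b (0.38, nearly identical to Mterf1a and so uncertain), whose groups overlapped.

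Among the 12 genes with the lowest p that averaged lower with both drugs, Adat2 came first. It encodes the catalytic subunit of a tRNA adenosine deaminase and overlaps Pex3. Adat2 ranged from 2.70 to 3.55 FPKM (median 3.28) with angiotensin II and from 2.13 to 2.51 FPKM (median 2.36) with both drugs, without overlap (difference −0.39, SE 0.0733, limma adjusted p = 0.804). Rin1, a Ras effector of forebrain neurons, ranged from 11.3 to 12.5 FPKM with angiotensin II and from 9.5 to 11 FPKM with both drugs, again without overlap (difference −0.19, SE 0.0511). Lrrc56 (−0.28, overlapping Lmntd2) and Fam185a (−0.20) were the other genes of the 12 whose groups did not overlap (0.101% of all genes). The 12 genes of each direction were ranked by p on these same libraries, so a lack of overlap among them is not separate evidence.

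Smo, which encodes the signal-transducing receptor of the hedgehog pathway, ranged from 3.53 to 4.75 FPKM (median 3.89) with angiotensin II and from 2.65 to 3.59 FPKM (median 3.34) with both drugs. The ranges overlapped, with a difference of −0.28 (SE 0.0862, limma adjusted p = 0.934), whereas in vehicle mice hydralazine went with a difference of 0.06 (SE 0.0562). The interaction was −0.34 (SE 0.101, limma adjusted p = 0.9998). Of 14 tested hedgehog genes, 9 averaged higher and 5 lower (median 0.04), and the 2 at an unadjusted limma p under 0.05 were Smo and the co-receptor Cdon (−0.16), both lower (1.4% of all genes).

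The further genes among these 12 were Higd1b, the matrix metalloproteinase gene Mmp2 (−0.33), the adenylyl cyclase gene Adcy9 (−0.32), the coenzyme Q kinase gene Coq8b (−0.24), Exoc3l (−0.32), Cytl1 (−0.64) and Eno1b (−0.36). Eno1b is a retrocopy of the glycolytic gene Eno1, so its reads are uncertain. It was also the 1 gene of those tested there that was lower in the hippocampus at an unadjusted limma p under 0.05 (1.93% of all genes there; log2 difference −1.1, SE 0.371).

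The 24 genes were looked up in libraries that the ranking had not used, although the hippocampal libraries may come from the same mice as the hemisphere libraries. In the comparison of hydralazine with vehicle in the hemisphere, 7 of the 12 higher genes and 7 of the 12 lower genes had the same direction, where 50.7% of all tested genes were higher and 49.3% lower. At an unadjusted limma p under 0.05 in the same direction stood Edn1 and Cxcl12 (1.08% of all genes) and none of the lower genes (1.2%), while Sh3bgr was lower there (−0.25, SE 0.0891). In the hippocampus, where 0 of 14432 genes were called (0.0%), none of the higher genes stood at that p (1.72% of all genes), and 9 of the 12 higher genes and 7 of 10 tested lower genes had the same direction, where 46.9% of all tested genes were higher and 53.1% lower. Without the libraries that list few genes these counts were 8 of 12 and 9 of 10 (47.1% and 52.9% of all tested genes), with Edn1 higher (2.35% of all genes) and Eno1b lower (2.86%) at an unadjusted limma p under 0.05.

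Vegfa, the gene of vascular endothelial growth factor A, averaged lower with both drugs. It ranged from 15.1 to 23 FPKM (median 19.4) with angiotensin II and from 12.3 to 19.1 FPKM (median 15.5) with both drugs, overlapping groups with a difference of −0.34 (SE 0.116, limma adjusted p = 0.934). Its difference was −0.23 in vehicle mice (SE 0.124) and −0.49 in the hippocampus under angiotensin II (SE 0.189), in each case without passing the adjusted threshold. Hippocampal angiotensin II replicate 6 held 10.9 FPKM of Vegfa, and the rest of that group 4.65 to 6.69 FPKM. That library also had the lowest mitochondrial share of its group (5.74% of reads), and the Vegfa difference without it is not given here. Vegfa is a target of the hypoxia-inducible factors, whose prolyl hydroxylases use iron and 2-oxoglutarate. Of 26 tested targets, 9 averaged higher and 17 lower with a median of −0.04, and Vegfa was the 1 at an unadjusted limma p under 0.05. Without angiotensin II replicate 6, 7 averaged higher and 19 lower (median −0.03), and 3 were lower at that p (2.71% of all genes). The 10 genes of the factors and their regulators were split into 5 higher and 5 lower (median −0.00), and the 26 tested 2-oxoglutarate dioxygenases into 14 higher and 12 lower (median 0.01).

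Other systems that set vascular tone had medians near 0. Of 9 tested renin-angiotensin genes, 3 averaged higher and 6 lower with a median of −0.06, which was 0.04 without angiotensin II replicate 6, and none stood at an unadjusted limma p under 0.05. The angiotensin receptor genes Agtr1a, Agtr1b and Agtr2 were below the expression filter. Of 19 tested genes of nitric oxide and cyclic GMP signalling, the pathway of vascular relaxation, 10 averaged higher and 9 lower (median 0.01), with none at that p. Of 9 tested adrenergic genes, 3 averaged higher and 6 lower (median −0.08, and −0.00 without angiotensin II replicate 6). The receptor gene Adra1d was the 1 adrenergic gene at that p (−0.30, SE 0.139; −0.22 without that library).

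Matrix genes leaned lower with both drugs when all libraries were used. Of 44 tested extracellular matrix genes, 7 averaged higher and 37 lower with a median of −0.08. Without angiotensin II replicate 6 the split was 17 higher and 26 lower and the median −0.02. At an unadjusted limma p under 0.05 stood Mmp2, which degrades basement membrane, the elastin crosslinker Loxl1 (−0.44) and the microfibril gene Fbn1 (−0.20), all lower (1.4% of all genes). Mmp2 ranged from 1.14 to 1.59 FPKM (median 1.35) with angiotensin II and from 0.751 to 1.26 FPKM (median 0.965) with both drugs, overlapping groups with a difference of −0.33 (SE 0.101). Markers of meningeal fibroblasts, which make much of this matrix, also averaged lower, with 4 of 19 tested members higher and 15 lower (median −0.06, and −0.03 without that library) and none at an unadjusted limma p under 0.05. Their summed FPKM ranged from 781 to 1236 with angiotensin II and from 734 to 940 with both drugs, no member was at 0 in all libraries, and their part in the matrix values was not tested.

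A list of 12 genes noted for differing between angiotensin II and vehicle in the hemisphere averaged higher with both drugs. The list was chosen on these same angiotensin II libraries, so its direction here is not independent evidence. Of the 12, 10 averaged higher and 2 lower with both drugs, with a median of 0.16 (0.14 without angiotensin II replicate 6, 0.09 without replicate 4 of both drugs). At an unadjusted limma p under 0.05 stood 4, all higher (1.4% of all genes): Btg2, Msantd1, Dusp1 and Arc. Btg2 is an antiproliferative early gene, Dusp1 a phosphatase of mitogen-activated kinases and Arc a synaptic gene induced by neuronal activity.

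Arc ranged from 18 to 29.8 FPKM (median 24.5) with angiotensin II and from 23.3 to 74.3 FPKM (median 33.7) with both drugs, against 40.1 to 124 FPKM in vehicle and 30.9 to 103 FPKM in vehicle plus hydralazine. Replicate 4 of both drugs held the highest Arc value. The difference of 0.60 (SE 0.243, limma adjusted p = 0.934) was 0.40 without that library. Dusp1 ranged from 5.88 to 9.53 FPKM (median 8.05) with angiotensin II and from 8.50 to 19.4 FPKM (median 9.67) with both drugs, and its difference of 0.47 (SE 0.183) was 0.31 without replicate 4, again the highest. Btg2 ranged from 3.30 to 6.72 FPKM (median 4.37) with angiotensin II and from 5.55 to 9.38 FPKM (median 6.29) with both drugs, and its difference of 0.50 (SE 0.169) was 0.41 without replicate 4. For all 3 genes the groups overlapped, and the mean with both drugs lay between the means of angiotensin II and of vehicle.

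In vehicle mice the same genes averaged lower with hydralazine, by −0.60 for Btg2 (SE 0.154), −0.67 for Dusp1 (SE 0.176) and −0.81 for Arc (SE 0.331). The interaction contrast, which takes hydralazine's difference with angiotensin II minus that without it, called 0 of 16747 genes (0.0%), with 246 higher (1.47%) and 215 lower (1.28%) at an unadjusted limma p under 0.05. Its 5 named genes with the lowest p were Btg2 (1.1, SE 0.238), Sh3bgr (0.55), Dusp1 (1.14, SE 0.265), Mfap1b (0.79) and mt-Co2 (0.99), each with an adjusted p of 0.9998. Arc stood at 1.41 (SE 0.432) in this contrast. The angiotensin II and vehicle libraries that chose the list enter it, so its values are not independent of that choice.

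In the hippocampus under angiotensin II, these early genes averaged lower with hydralazine, in the opposite direction to the hemisphere. The values were −0.51 for Btg2 (SE 0.215), −0.53 for Dusp1 (SE 0.204) and −0.60 for Arc (SE 0.238). The difference between the regions, hippocampus minus hemisphere, fitted without pairing although mice may be shared, called 0 of 16666 genes (0.0%; lowest limma adjusted p 0.858), with 242 higher (1.45%) and 376 lower (2.26%) at an unadjusted limma p under 0.05. Its 5 named genes with the lowest p were Zpr1 (0.39), Ptbp1 (−0.82), Btg2 (−1.01, SE 0.285), Dusp1 (−0.998, SE 0.285) and Jpt1 (0.58). Without the hippocampal libraries that list few genes the values were −0.82 for Btg2 and −1.09 for Dusp1. The hemisphere libraries on which Btg2, Dusp1 and Arc were picked enter the region contrast, so its values for them are not independent of that choice.

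**Figure D4:**
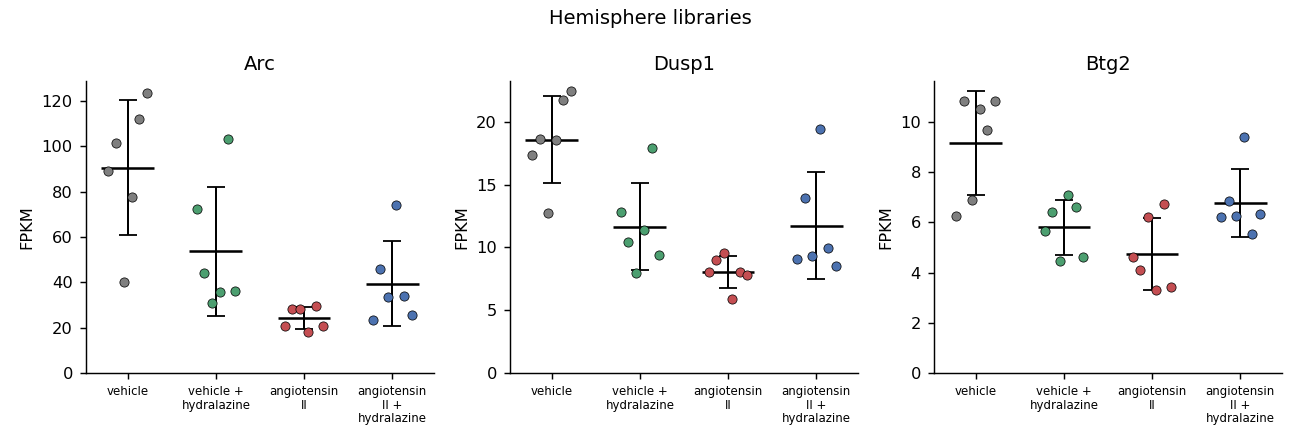
FPKM (y axes) of Arc, Dusp1 and Btg2 in each of the 24 hemisphere libraries by treatment (x axis); points are libraries and bars are the mean ± SD over 6. The libraries with both drugs overlap both the angiotensin II and the vehicle ranges for all 3 genes, and replicate 4 of both drugs is the highest of its group in each.

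The wider list of immediate early genes, which neurons induce within minutes of activity, held 29 tested members, of which 21 averaged higher and 8 lower with both drugs. The median was 0.10, and 0.02 without angiotensin II replicate 6, so most of the list's lean rested on that library. The members at an unadjusted limma p under 0.05 were Arc, Dusp1 and Btg2. Junb differed by 0.25 (SE 0.179) and Nr4a1 by 0.21 (SE 0.185), and both were highest in replicate 4 of both drugs, at 30.9 and 33.6 FPKM.

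No gene of the immune and glial lists passed the adjusted threshold, and their largest lean shrank without angiotensin II replicate 6. All 20 microglial markers were tested, 8 averaged higher and 12 lower, and the median was −0.02 (0.02 without that library). All 8 tested genes of MHC class II presentation averaged lower with a median of −0.22, but the median was −0.09 and the split 2 higher and 6 lower without that library. Replicate 6 had a mean log2 level of 3.27 over these 8 genes, while no other library exceeded 2.53. H2-Ab1, a class II chain, ranged from 1.81 to 6.87 FPKM (median 2.57) with angiotensin II and from 1.24 to 2.68 FPKM (median 1.93) with both drugs (difference −0.52, SE 0.250). The median over 15 MHC class I genes was −0.08 with 6 higher and 9 lower, and 0.00 with 8 higher and 7 lower without that library. Over 20 interferon-induced genes it was 0.03 (0.05 without it), and over 11 complement genes −0.03 (0.02 without it). Medians over the marker lists of astrocytes (0.03), oligodendrocytes (−0.02), excitatory neurons (0.04) and inhibitory neurons (−0.02) were near the 0.00 of all genes.

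Metabolic lists turned on the same library. The 13 protein genes of the mitochondrial genome had a median of 0.23 with 12 higher and 1 lower, and 0.03 with 8 higher and 5 lower without angiotensin II replicate 6. That library had a mean log2 level of 7.71 over these genes, and the other 11 libraries 9.24 to 9.56. The 16 heat shock chaperones had a median of 0.12 and 0.01 without it, and the 20 clock genes 0.07 and 0.03. In the opposite direction, the 78 ribosomal protein genes had a median of 0.01 with 42 higher and 36 lower, and 0.07 with 72 higher and 6 lower without that library. The 75 nuclear genes of the respiratory chain went from 28 higher and 47 lower (median −0.02) to 63 higher and 12 lower (median 0.05).

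**Figure D5:**
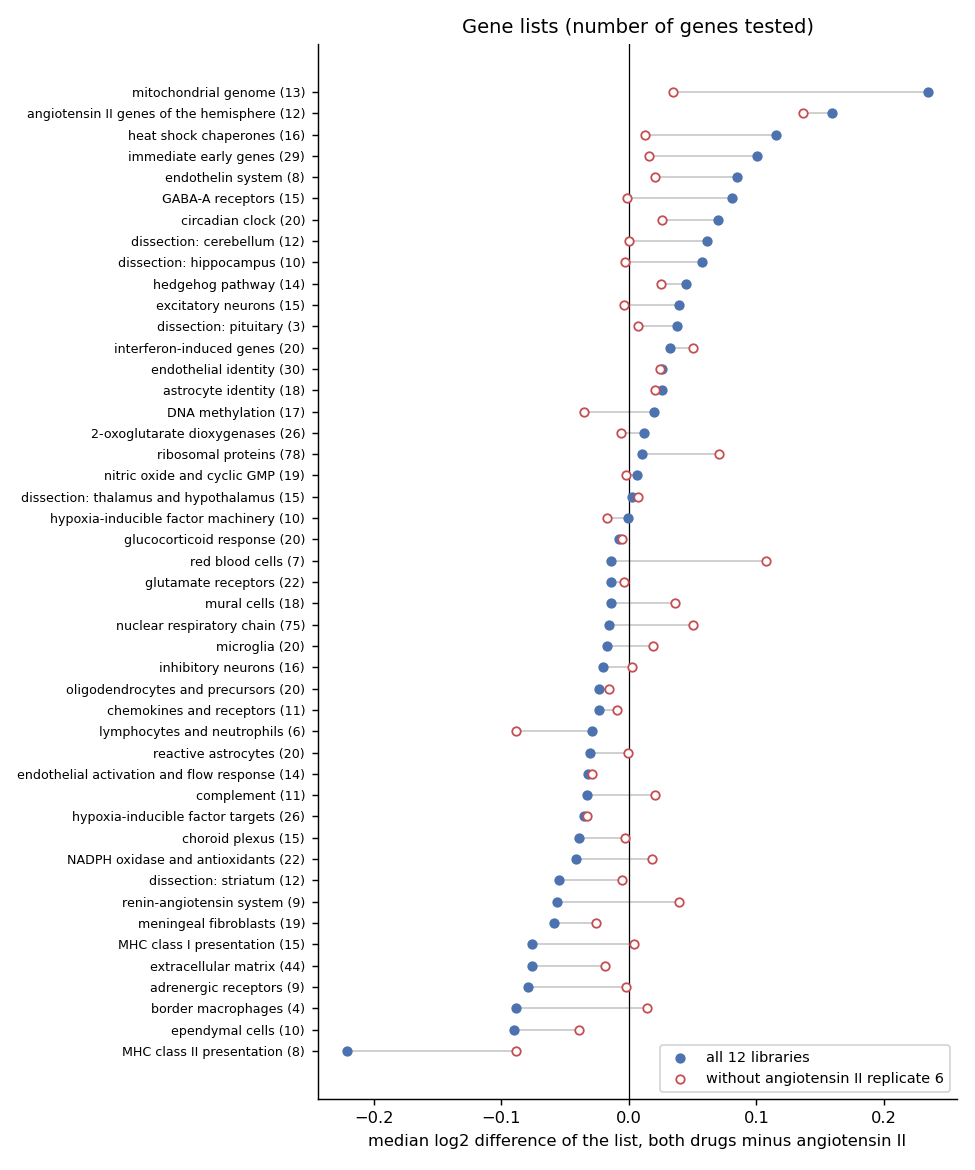
Median log2 difference between both drugs and angiotensin II (x axis) over the tested genes of each of the 46 gene lists (y axis), with all 12 libraries (filled points) and without angiotensin II replicate 6 (open points). Medians such as those of the mitochondrial genome (0.23 and 0.03) and MHC class II presentation (−0.22 and −0.09) lie closer to 0 without that library.

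A difference of at least 2-fold on the log2(FPKM + 0.5) scale was found for 25 genes, 13 higher and 12 lower with both drugs. Of these, 23 had a length under 500 bases, 10 of them microRNA genes, for which a single read is worth a large FPKM. The other 2 were Edn1 and Gapdh. Gapdh, a glycolytic enzyme gene with many near-identical pseudogenes, averaged 22.9 FPKM with angiotensin II and 4.74 FPKM with both drugs, a log2 difference of −1.41. Its angiotensin II libraries stood at 57.5, 3.79, 4.11, 30.4, 4.80 and 36.9 FPKM, so 3 were high and 3 lay near the 3.98 to 5.35 FPKM of the libraries with both drugs. Of the 12 libraries of the vehicle groups, 1 with vehicle (37.4 FPKM) and 1 with vehicle plus hydralazine (41.5 FPKM) were also high. Its reads may be shared with its copies, which was not tested, so this gene's value is uncertain. Gapdh was also singled out after its values were seen.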

How the data were processed

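The RNA of brain hemispheres and hippocampi was sequenced. FPKM per gene were deposited by the authors with GRCm38 coordinates. The submitters' processing notes name DESeq 1.10.1 and the builds GRCm38 and mm10. The aligner, counter and strandedness (not given in the sources used here) are unknown, so overlapping or near-identical genes are uncertain. FPKM times gene length gave whole reads for 100% of values (tolerance 0.1), which describe depth only. No value column was unmatched (0).

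Values were tested as log2(FPKM + 0.5), which understates changes of low genes, with limma 3.58.1 in R 4.3.3 (trend, robust prior, 1 mean per group, two-sided, Benjamini-Hochberg over all genes tested, called under 0.05; tested on simulated data). Exact permutation tests listed the regroupings with numpy 2.4.6 in Python 3.11.15. Named genes were the 12 lowest p per direction among named protein-coding genes with a group mean of at least 1 FPKM, up to 4 per list, 5 for each difference contrast, and a set always named. Members, the 46 lists and tests were chosen with earlier results of these data known. Hydralazine against vehicle, the hippocampus alone and the average over infusions were added after values were seen. Alternatives varied pseudocount, filter, scaling, weights, block and libraries. Among 30 pairs within groups, none was as alike as sampling noise allows (lowest chi-square 3.42 per gene).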

Additional observations from a re-analysis of the deposited data

Results flagged for a closer look

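Of 176 sets of 6 values (library measures, named genes and list means per group), 24 (13.6%) had a highest or lowest library that stood apart from the rest by Dixon's test; chance gives about 1 in 20. Angiotensin II replicate 6 accounted for 18. It listed 23165 genes above 0 and 2.77% mitochondrial reads, both low. Its Fam181b (4.27 FPKM) and Ednrb (4.79) were low, and its Higd1b (6.89), Coq8b (5.60), Exoc3l (3.06) and Adrb1 (5.95) were high. Its list means of log2 values were low for the endothelin system (1.13), DNA methylation (2.19), oligodendrocytes (5.14), circadian clock (2.88), GABA-A receptors (2.25) and mitochondrial genome (7.71). They were high for adrenergic receptors (3.02), MHC class II presentation (3.27), red blood cells (4.75) and inhibitory neurons (4.66). The differences of Fam181b, Coq8b, Exoc3l and H2-Ab1 are given above only with this library. Over 23 alternatives, Fam181b differed by 0.279 to 0.379 and Coq8b by −0.2695 to −0.188. Exoc3l had 23 alternatives as well and differed by −0.387 to −0.222.

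The other 6 were spread over 4 libraries. Angiotensin II replicate 3 was high in Mterf1b (2.39 FPKM). With both drugs, replicate 1 had the most reads (23.5 M) and a low mean of border macrophage genes (0.328), and replicate 3 a low mean of hypoxia-inducible factor machinery (3.47). Replicate 4 was high in Btg2 (9.38 FPKM) and low in the thalamus and hypothalamus list (2.16).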

How the results depend on the processing

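No gene was called in the main comparison in 22 of 23 alternatives, and leaving out 1 library gave 0 to 1 calls (Edn1, without replicate 4 of both drugs); counts at an unadjusted limma p under 0.05 ranged from 330 to 1061 (443 as reported, 899 without angiotensin II replicate 6, 1061 with library weights). The same counts ranged from 357 to 1083 for the interaction, 432 to 1110 for the region difference, 304 to 894 for hydralazine against vehicle, 356 to 1023 for the hippocampus and 350 to 990 for the average over infusions. Hydralazine against vehicle called 0 to 1 genes with 1 library left out (Gm23084 or Rpl21-ps10), and the average over infusions 0 to 1 (Edn1). A pairing check of same-numbered libraries gave coefficients of −0.10 to 0.12. These are not correlations of whole expression profiles, and they cannot settle whether the numbers pair the libraries. With the replicate block, the main comparison called 0 genes (384 at unadjusted limma p under 0.05) and hydralazine against vehicle 1 (Gm23084).

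Of 894 results for 39 genes, 888 kept their direction. The reversals were in genes near 0: Eln (−0.05) with library weights (0.064) or without angiotensin II replicate 6 (0.0479), and, with 1 library left out, Ece1 (−0.0002694 to 0.0654) and Podxl (−0.0133 to 0.0400). Without angiotensin II replicate 6, the difference in reads was 2.62 M (exact permutation adjusted p = 0.0519), and Mme went from 0.08 to −0.0341. Of the 46 list medians, 16 turned sign without that library, 25 came nearer 0 and 5 went farther from 0. The shift exceeded the SD of the list mean between libraries for renin-angiotensin (0.04), adrenergic (−0.00), hippocampal dissection (−0.00) and NADPH oxidase genes (0.02). Low genes rest on few reads, 17 to 46 per library for Cxcr4, which limits their precision.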

Other observations

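Among libraries with hydralazine, those with the lowest Edn1 also differed in Vegfa, Eng and Itm2a. These genes were picked after the values were known, and the pattern was not tested. With both drugs, replicate 4 had the lowest Edn1 (1.45 FPKM), the highest Vegfa (19.1), the lowest Eng (8.54) and the lowest Itm2a (34.7). With vehicle plus hydralazine, replicates 3 and 4 had the lowest Edn1 (0.825 and 1.51 FPKM), the highest Vegfa (23.3 and 22.8), the lowest Eng (7.28 and 7.54) and the lowest Itm2a (28.3 in both). Cxcl12 followed only in part. With both drugs its lowest library was replicate 6 (9.03 FPKM), where Edn1 stood at 5.24 FPKM, and replicate 4 stood at 9.52 FPKM. With vehicle plus hydralazine its lowest libraries were replicates 3 and 4 (8.60 and 9.10 FPKM). Eng also varied without hydralazine, reaching 12.6 FPKM in vehicle and 11.7 FPKM in angiotensin II. The dose each mouse drank and the time of tissue collection were not analysed here.

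The metallothionein gene Mt2, which binds zinc and copper, averaged higher with both drugs (0 to 0.877 FPKM with angiotensin II, 0.478 to 1.67 FPKM with both drugs, log2 difference 0.72, SE 0.241, limma adjusted p = 0.934), at 0 to 20 reads per library. Of 20 glucocorticoid-responsive genes, 9 averaged higher and 11 lower (median −0.01). At an unadjusted limma p under 0.05 stood Mt2, higher (1.4% of all genes), and the cell cycle inhibitor gene Cdkn1a, lower (−0.27, SE 0.119; 1.4%), which differed by −0.20 without angiotensin II replicate 6.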
